A study of Mus musculus with 4 samples.

Results

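The Hedgehog pathway genes described here were 10: Ptch1, Smo, Gli1, Gli2, Gli3, Gas1, Boc, Cdon, Hhip and Sufu. They were taken by name, as all probe sets whose single gene symbol was one of the 10, which gave 27 of the 45101 probe sets and 10 of the 18193 genes on the array. Mouse cells of 4 kinds were measured on 1 Affymetrix expression array each. The samples were HB9-GFP+ cells, sorted by a fluorescent reporter of the motor neuron factor HB9 (gene Mnx1); cerebellar granule cells of postnatal day 6; sorted Sox1 neural stem cells; and undifferentiated embryonic stem (ES) cells. The reporter ES line was grown on mitomycin C-treated embryonic fibroblasts with leukemia inhibitory factor. Per the labels, the differentiation medium held Sonic hedgehog (200 uM as written there), retinoic acid (0.1 uM) and purmorphamine (0.2 uM) from day 5 to day 9, and HB9-GFP+ cells were collected on day 8. Purmorphamine is a small molecule that activates Smo. The same text is attached to all 4 samples, so it does not say whether the Sox1 cells had these factors, and the labels used here give no strain, sex or number of animals for the granule cells.

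In the Hedgehog pathway a secreted ligand binds Ptch1, which otherwise holds the membrane protein Smo inactive, and the co-receptors Gas1, Boc and Cdon take part in ligand binding. Active Smo, acting at the primary cilium, releases the zinc finger factors Gli1, Gli2 and Gli3 from restraint by Sufu, and the genes Gli1, Ptch1 and Hhip are themselves switched on by the pathway. Sonic hedgehog patterns the ventral spinal cord, where it specifies motor neuron progenitors, and in the early postnatal cerebellum it is made by Purkinje cells and drives division of granule cell precursors.

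Marker genes were read before the pathway. In the sample labelled HB9-GFP+ all 8 pluripotency markers and none of the 8 motor neuron markers were detected, and Mnx1 itself had a signal of 15.9, against 5.8 in the ES sample. Pou5f1, the POU factor of pluripotent cells, was at 11188 in the sample labelled HB9-GFP+ and at 9255.5 in the ES sample. The values go against the label, and the sample is called the sample labelled HB9-GFP+ throughout. The fibroblast markers had 8 of 8 detected and a summed signal of 18150 in that sample, 6 and 5005 in the granule sample, 2 and 1256 in the Sox1 sample, and 1 and 830.4 in the ES sample. Granule neuron markers had 7 of 8 detected in the granule sample, where 8 of 8 markers of Bergmann and astroglia and 6 of 7 Purkinje markers were also detected. All 8 neural stem markers were detected in the Sox1 sample (summed signal 35150), and 5 of 8 in the granule sample (31040). In the Sox1 sample 6 of 8 pluripotency markers were detected as well (summed signal 7266, against 99390 in the ES sample). So were 4 of 8 granule neuron markers, with Zic1 at 8468.3. In the ES sample all 8 pluripotency markers were detected. The plot of marker sums shows these levels.

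**Figure D1:**
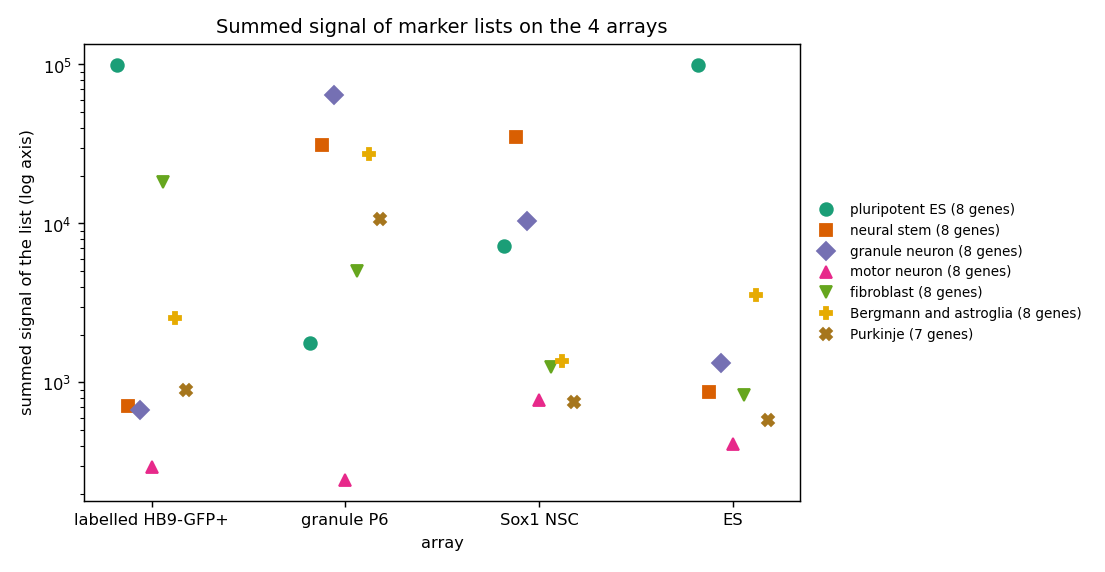
Summed signal (scaled intensity, log axis) of the representative probe sets of 7 marker lists on each of the 4 arrays, 1 symbol per list. The pluripotency sum was 99620 in the sample labelled HB9-GFP+ and 99390 in the ES sample, and the fibroblast sum was highest in the sample labelled HB9-GFP+.

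Signals are the deposited linear intensities, scaled to a common mean per array. The low level was a signal of 78.8, the detection level was 157.5, and lower values were raised to the low level before any difference was taken. A gene was called higher or lower in a pair of arrays where it was detected on the brighter one and differed by at least 4-fold, which is 2 log2 units. With 1 array per kind of cell no difference has a replicate check, no p-value was computed, and pairs that share an array are not independent. The SD of a log2 difference among probe sets of one gene, pooled over all genes, was 0.56 to 0.85 across the 6 pairs, and that over 18 hybridisation controls was 0.06 to 0.11. Both are technical and hold no biological spread. On bulk arrays, fewer cells that express a gene and less RNA per cell cannot be told apart.

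All 10 genes were detected on at least 1 array. The number detected was 7 in the sample labelled HB9-GFP+, 9 in the granule sample, 8 in the Sox1 sample and 8 in the ES sample. Over all genes the detected shares were 51.3%, 52.3%, 51.5% and 51.8% in the same order. Of the 27 probe sets, 17 were detected on at least 1 array and 9 on all 4, and the remaining 10 were dark everywhere, so a gene with several probe sets was represented by the one with the highest mean log2 signal. No member was brightest in the sample labelled HB9-GFP+ or in the ES sample. There were 6 brightest in the Sox1 sample (Ptch1, Smo, Gli3, Gas1, Boc and Cdon) and 4 in the granule sample (Gli1, Gli2, Hhip and Sufu). Among all 11571 genes detected on any array, 27.8% were brightest in the sample labelled HB9-GFP+, 28.4% in the granule sample, 20.6% in the Sox1 sample and 23.2% in the ES sample. With arrays centred on the median level of 7 reference genes, described below, Ptch1 and Boc moved to the granule sample. The split was then 6 in the granule sample, 3 in the Sox1 sample and 1, Cdon, in the ES sample.

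**Figure D2:**
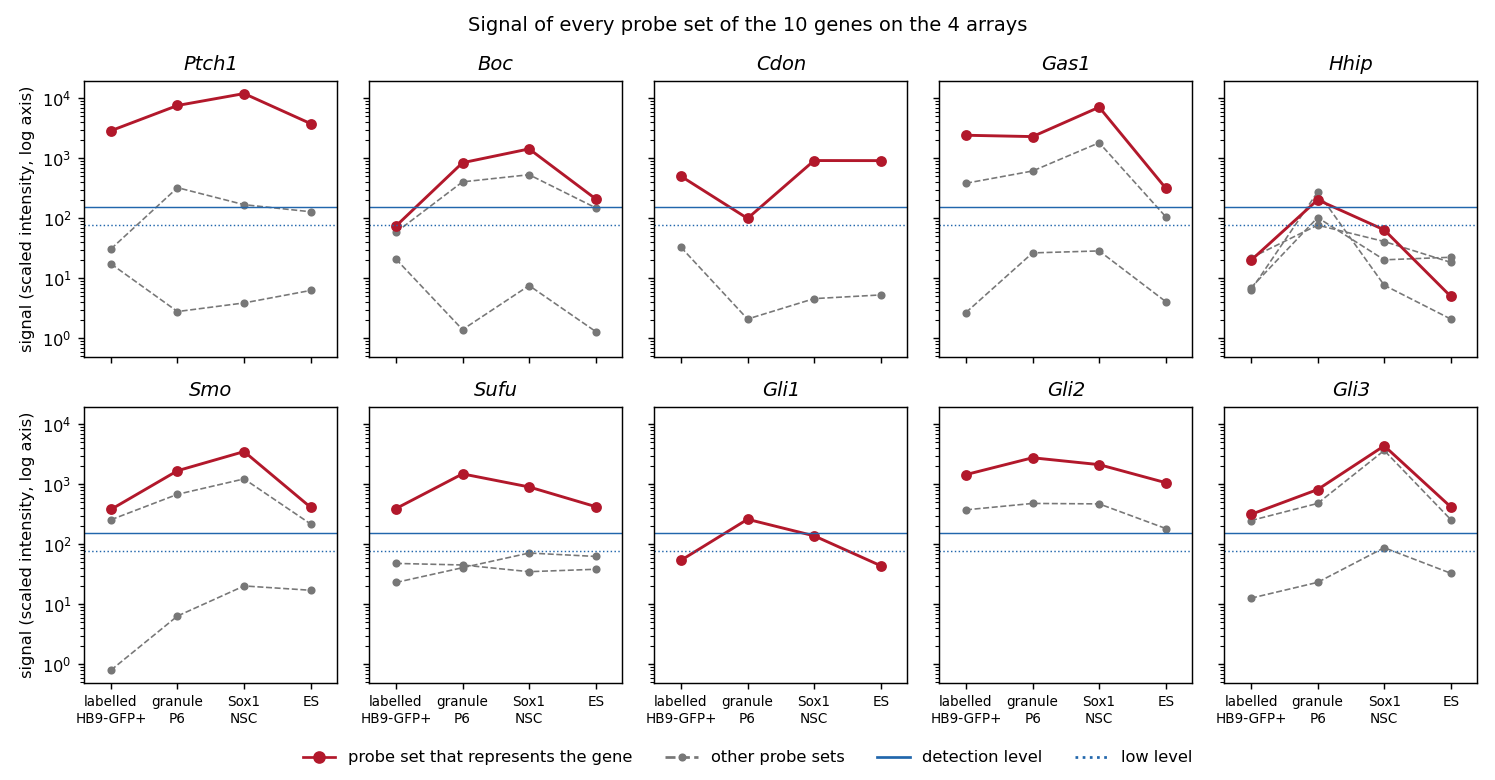
Signal (scaled intensity, log axis) of every probe set of the 10 genes on the 4 arrays, 1 panel per gene and 1 line per probe set. Red lines are the probe sets that represent the genes, grey dashed lines the others, and the blue lines mark the detection level (157.5) and the low level (78.8). Gli3, Smo, Gas1 and Boc each have 2 detected probe sets that peak in the Sox1 sample, and Gli1 and Hhip cross the detection level in the granule sample alone.

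Promoter sequences were read for the members, and 4 are shown because Smo, Gli3 and Gas1 were called higher together in the Sox1 sample over the ES sample and Ptch1 is the textbook target of the pathway. The RefSeq table of GRCm38.p6 holds 250 bases before to 50 after the start of 8 of the 10 genes. It has no entry for Gli1 or for Boc, and Boc was also called higher in the Sox1 sample over the ES sample. The array annotation names no genome build, so these positions describe the promoters and not the probes. Capitals mark CCACCC or its reverse complement GGGTGG, the core of the Gli binding motif, on either strand, which Smo and Gli3 hold and Gas1 and Ptch1 do not.
Smo, GRCm38.p6 chr6:29735247-29735546, plus strand: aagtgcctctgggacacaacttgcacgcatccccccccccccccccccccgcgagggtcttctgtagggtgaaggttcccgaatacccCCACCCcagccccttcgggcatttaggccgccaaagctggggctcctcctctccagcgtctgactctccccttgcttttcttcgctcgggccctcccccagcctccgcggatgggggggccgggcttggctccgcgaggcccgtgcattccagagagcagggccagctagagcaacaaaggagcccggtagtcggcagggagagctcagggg
Gli3, GRCm38.p6 chr13:15463473-15463772, plus strand: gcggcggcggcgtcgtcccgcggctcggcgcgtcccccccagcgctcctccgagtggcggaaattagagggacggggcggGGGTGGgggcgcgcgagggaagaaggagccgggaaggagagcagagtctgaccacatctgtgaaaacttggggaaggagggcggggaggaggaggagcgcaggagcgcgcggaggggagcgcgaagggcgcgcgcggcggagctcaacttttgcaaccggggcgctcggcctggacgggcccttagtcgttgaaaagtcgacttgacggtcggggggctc
Gas1, GRCm38.p6 chr13:60177486-60177785, minus strand: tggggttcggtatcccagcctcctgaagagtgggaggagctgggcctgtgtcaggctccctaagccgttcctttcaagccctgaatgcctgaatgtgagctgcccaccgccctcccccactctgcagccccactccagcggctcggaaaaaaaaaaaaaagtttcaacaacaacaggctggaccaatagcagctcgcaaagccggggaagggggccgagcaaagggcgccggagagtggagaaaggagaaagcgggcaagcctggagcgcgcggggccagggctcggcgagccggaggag
Ptch1, GRCm38.p6 chr13:63565686-63565985, minus strand: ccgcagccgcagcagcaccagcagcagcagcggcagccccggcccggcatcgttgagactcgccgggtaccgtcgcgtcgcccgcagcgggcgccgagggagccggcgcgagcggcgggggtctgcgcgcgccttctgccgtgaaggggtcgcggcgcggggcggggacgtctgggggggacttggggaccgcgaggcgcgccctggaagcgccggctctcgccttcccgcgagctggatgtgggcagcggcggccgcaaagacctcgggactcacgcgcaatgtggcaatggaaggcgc

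The Gli consensus GACCACCCA was searched on both strands and was in none of the 8 member promoters, and in 0.253% of all 32851 promoters of that length. The shorter ACCACCC was in 1, that of Gli2, and in 4.61% of all. The core CCACCC, which both longer motifs contain, was in 4 of the 8, those of Gli2, Gli3, Hhip and Smo, against 31.5% of all promoters. In Smo it starts at -162 from the start site and in Gli3 at -170 on the other strand. A match in these windows is a description of letters, and a missing one says nothing of sites elsewhere. The 8 promoters had a median GC content of 67.5%, against 52.7% over all promoters, and a median ratio of observed to expected CpG of 0.67, against 0.38. Ptch1 had the highest GC content (76.3%) and Cdon the lowest (44.7%).

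Ptch1, the receptor, had a signal of 2890.8 in the sample labelled HB9-GFP+, 7626 in the granule sample, 12045.3 in the Sox1 sample and 3797 in the ES sample. On this representative probe set it was 4.17-fold lower in the sample labelled HB9-GFP+ than in the Sox1 sample and differed by less than 4-fold in the other pairs. That call was short of 4-fold on the other detected probe set, at -1.10 log2 units with the low level in place. It was also short with centring on array medians (-1.70) and with the mean over probe sets (-0.78). For the sample labelled HB9-GFP+ over the granule sample the difference was -1.40, short of a call. There the other detected probe set was past 4-fold, at -2.05, as was the representative one with centring on reference genes, at -2.35. The Sox1 and granule samples were the high ones. The sample labelled HB9-GFP+ and the ES sample differed by -0.39 log2 units, inside the probe set SD of 0.60. Its other detected probe set gave another order, with 30.9 in the sample labelled HB9-GFP+, 325.3 in the granule sample, 169.3 in the Sox1 sample and 129 in the ES sample, so the ranking of the Sox1 sample above the granule sample rests on 1 probe set.

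The co-receptors did not share a profile. Gas1, a membrane-anchored protein first described in growth-arrested fibroblasts, was at 2431.6 in the sample labelled HB9-GFP+, 2309.3 in the granule sample, 7143 in the Sox1 sample and 318.4 in the ES sample. The ES sample was at least 4-fold below each of the other 3, which held for 0.320% of genes detected on any array. Gas1 was 7.64-fold higher in the sample labelled HB9-GFP+ than in the ES sample, 7.25-fold higher in the granule sample and 22.4-fold higher in the Sox1 sample. Its other detected probe set repeated the order of the Sox1 sample above the rest, at 385.6 in the sample labelled HB9-GFP+, 616.6 in the granule sample, 1824.3 in the Sox1 sample and 106.4 in the ES sample, with a log2 difference of 1.86 for the sample labelled HB9-GFP+ over the ES sample, short of 4-fold. For the sample labelled HB9-GFP+ over the granule sample the probe sets differed in sign, at 0.07 and -0.68, and centring on reference genes also turned this difference.

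The fibroblast markers moved with Gas1 between the sample labelled HB9-GFP+ and the ES sample. Col3a1, a collagen gene, was at 6165.2 in the sample labelled HB9-GFP+ and at 20.6 in the ES sample, and the matrix proteoglycan gene Dcn was at 3375.9 and 24.0. The part of these markers in the Gas1 difference was not tested. In the Sox1 sample, where Gas1 was highest, Col3a1 (43.9), Dcn (51.6), Lum, Postn and Bgn lay below the low level and Col1a1 was not detected, while the collagen gene Col1a2 was called higher (700.9 in the Sox1 sample and 134.4 in the ES sample) and Pdgfrb, a growth factor receptor gene, was detected at 240.0 and 442.5.

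Boc, an immunoglobulin superfamily co-receptor, was at 74.5 in the sample labelled HB9-GFP+, 846.8 in the granule sample, 1439.8 in the Sox1 sample and 211.1 in the ES sample. On its representative probe set, Boc was the only member with all 3 steps in its order of levels larger than the probe set SD. The order ran from the Sox1 sample through the granule and ES samples to the sample labelled HB9-GFP+, where Boc lay below the low level. For the granule sample over the Sox1 sample, the other detected probe set was at -0.40, inside the SD of 0.62. Centring on reference genes turned this difference to 0.12. The other detected probe set was below detection in the ES sample (150.0) and in the sample labelled HB9-GFP+ (58.6). Boc was at least 18.3-fold lower in the sample labelled HB9-GFP+ than in the Sox1 sample, and at least 10.8-fold lower than in the granule sample. Its other detected probe set gave log2 differences of -2.76 and -2.37 in the same pairs. For the Sox1 sample over the ES sample the 2 probe sets gave 2.77 and 1.83, and for the granule sample over the ES sample 2.00 and 1.44, so the second probe set was short of 4-fold in both.

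Cdon, the close relative of Boc, had a different profile. It was at 504.8 in the sample labelled HB9-GFP+, 100 in the granule sample, 921.2 in the Sox1 sample and 918.5 in the ES sample. The granule sample was the low one, below the detection level and at least 4-fold under each of the other 3, which held for 1.37% of genes detected on any array. The Sox1 and ES samples gave almost the same value. A single probe set carries this profile, since the other Cdon probe set reached at most 33.1.

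Hhip, a membrane protein that binds and sequesters the ligand, was detected in the granule sample alone. The representative probe set was at 20 in the sample labelled HB9-GFP+, 203.9 in the granule sample, 64.4 in the Sox1 sample and 5 in the ES sample, and a further one at 6.4, 274.5, 7.7 and 2.1 in that order. The granule signal was at least 2.59-fold above the other arrays on the representative probe set, short of a call. The remaining 2 of its 4 probe sets were below detection everywhere, and both were highest in the granule sample, at 77.2 and 103.3.

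Smo, the transducer, was at 382.2 in the sample labelled HB9-GFP+, 1690.4 in the granule sample, 3526.8 in the Sox1 sample and 414.3 in the ES sample. The samples fell into a high pair, the Sox1 and granule samples, and a low pair whose 2 values differed by 0.12 log2 units. Smo was 9.23-fold lower in the sample labelled HB9-GFP+ than in the Sox1 sample and 4.42-fold lower than in the granule sample. It was 8.51-fold higher in the Sox1 sample than in the ES sample and 4.08-fold higher in the granule sample than in the ES sample. Its other detected probe set kept these directions, with log2 differences of -2.26, -1.41, 2.50 and 1.64, so both calls that involve the granule sample were short of 4-fold there. For the sample labelled HB9-GFP+ over the ES sample the 2 probe sets differed in sign, at -0.12 and 0.24.

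Sufu, the cytoplasmic inhibitor of the Gli proteins, was at 395.2 in the sample labelled HB9-GFP+, 1497.4 in the granule sample, 906.8 in the Sox1 sample and 425.8 in the ES sample. It showed the same high and low pairs as Smo with the granule sample on top, and was never called. Its largest differences were 3.79-fold lower in the sample labelled HB9-GFP+ than in the granule sample and 3.52-fold higher in the granule sample than in the ES sample. These are the nearest values under the 4-fold line, and the nearest over it were Boc (4.01-fold) and Smo (4.08-fold) in the granule sample over the ES sample. A single probe set carries the Sufu profile, since the other Sufu probe sets reached at most 71.8. With the mean over probe sets, Sufu in the granule sample over the ES sample was at 0.48 log2 units in place of 1.81.

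Among the Gli factors, Gli3, whose promoter is shown above with its single CCACCC core, varied most. Gli3, whose processed form is the main repressor of Hedgehog target genes, was at 316.7 in the sample labelled HB9-GFP+, 820.9 in the granule sample, 4394.7 in the Sox1 sample and 421.1 in the ES sample. The Sox1 sample stood at least 4-fold above each of the other 3, which held for 0.968% of genes detected on any array. Gli3 was 13.9-fold lower in the sample labelled HB9-GFP+ than in the Sox1 sample, 5.35-fold lower in the granule sample than in the Sox1 sample, and 10.4-fold higher in the Sox1 sample than in the ES sample. The second detected probe set gave log2 differences of -3.88, -2.93 and 3.83 in these pairs.

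Gli2, the main activator among the 3 factors, was detected on every array, at 1457.4 in the sample labelled HB9-GFP+, 2780.9 in the granule sample, 2135.6 in the Sox1 sample and 1068 in the ES sample. No step between neighbours in this order exceeded the probe set SD. The full range was 1.38 log2 units, and its other detected probe set was at 376.8 in the sample labelled HB9-GFP+, 481.8 in the granule sample, 473.4 in the Sox1 sample and 184.0 in the ES sample, with the ES sample alone low. Gli1, an activator and the usual readout of pathway activity, had 1 probe set and was detected in the granule sample alone. It was at 54.3 in the sample labelled HB9-GFP+, 262.3 in the granule sample, 138.9 in the Sox1 sample and 44.1 in the ES sample. The granule sample was at least 3.33-fold above the ES sample, and at least 3.33-fold above the sample labelled HB9-GFP+, neither of which is a call. In the Sox1 sample Gli1 was above the low level but under detection.

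Of the 3 pathway-induced genes, none was called higher in the sample labelled HB9-GFP+ than in the ES sample. Ptch1 was at 2890.8 in the first and 3797 in the second, and Gli1 and Hhip were below the low level on both. In the granule sample all 3 were detected, and in the Sox1 sample Ptch1 alone.

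The profiles most like those of Ptch1 and Gli1 were sought over the 4 arrays, as the smallest root mean square difference of mean-centred log2 values among 11561 other genes detected on any array. For Ptch1 these were Vamp7 (0.053), Galnt16 (0.071) and Ago1 (0.086), and for Gli1 they were Cerox1 (0.024), Nicn1 (0.029) and Nat14 (0.032). The Gli1 profile has 2 of its 4 values at the low level.

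The 6 pairs of arrays are compared next, with the share of all genes called in each pair beside the members. The Sox1 sample over the ES sample had 4 members called higher, Gas1, Gli3, Smo and Boc, and none lower, of 8 detected on either. Over all genes detected on either array 6.20% were called higher and 5.21% lower. The median log2 difference was 2.22 over the 8 detected members, against -0.02 for all detected genes, and 1.38 over all 10, against 0.00 for all measured genes, and 7 of the 8 lay between 1.00 and 4.49 while Cdon was level at 0.00. Cdon turned below 0 under centring on reference genes. The 3' to 5' signal ratio of the actin control was 5.08 in the Sox1 sample and 4.55 in the ES sample, and that of Gapdh 3.68 and 1.99, both highest in the Sox1 sample. In the granule sample the ratios were 2.29 and 2.70. The part of RNA quality in these differences was not tested.

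The granule sample over the ES sample had 3 members called higher, Gas1, Smo and Boc, and 1 lower, Cdon, of 10 detected. The shares over all genes were 11.3% and 8.27%. The members' median was 1.56, against -0.09, and all but Cdon were above 0. The granule sample over the Sox1 sample had no member higher and 2 lower, Gli3 and Cdon, where 6.39% and 3.65% of genes were called. The median was -0.71 for members and -0.07 for all genes, and Gli1, Gli2, Hhip and Sufu were the 4 above 0. Under centring on reference genes Ptch1 and Boc also turned to above 0 in this pair. Markers of glia and Purkinje cells moved with the granule differences, since their summed signals were 27230 and 10660 in the granule sample, 1359 and 750.2 in the Sox1 sample, and 3533 and 576.7 in the ES sample. Fibroblast markers moved too, with Col3a1, Dcn, Col1a2 and Bgn called higher in the granule sample over the ES sample and Gas1 among the members called higher there. Their part in the differences was not tested.

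The sample labelled HB9-GFP+ over the Sox1 sample had no member higher and 4 lower, Boc, Gli3, Smo and Ptch1, of 8 detected. Of all genes 5.58% were called higher and 6.89% lower, and the median was -1.81 over the 8 detected members and -1.38 over all 10, against 0.04 and 0.00 for all genes. All 8 were below 0, also under the 3 scalings, but with the mean over probe sets Cdon was at 0.71 in place of -0.87. The actin 3' to 5' ratio was 2.77 in the sample labelled HB9-GFP+ and 5.08 in the Sox1 sample, and the Gapdh ratio 1.37 and 3.68, and their part in the differences was not tested. The sample labelled HB9-GFP+ over the granule sample had 1 member higher, Cdon (504.8 and 100), and 2 lower, Boc and Smo, where 9.21% and 12.3% of genes were called. The median was -1.39 for members and 0.13 for all genes. The sample labelled HB9-GFP+ over the ES sample had 1 member higher, Gas1, and none lower, where 2.00% and 1.46% of genes were called. The median was -0.25 over the 8 detected members and -0.11 over all 10, against 0.04 and 0.00 for all genes, and with centring on array medians the small differences of Ptch1, Smo, Gli3 and Sufu in this pair turned to above 0.

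**Figure D3:**
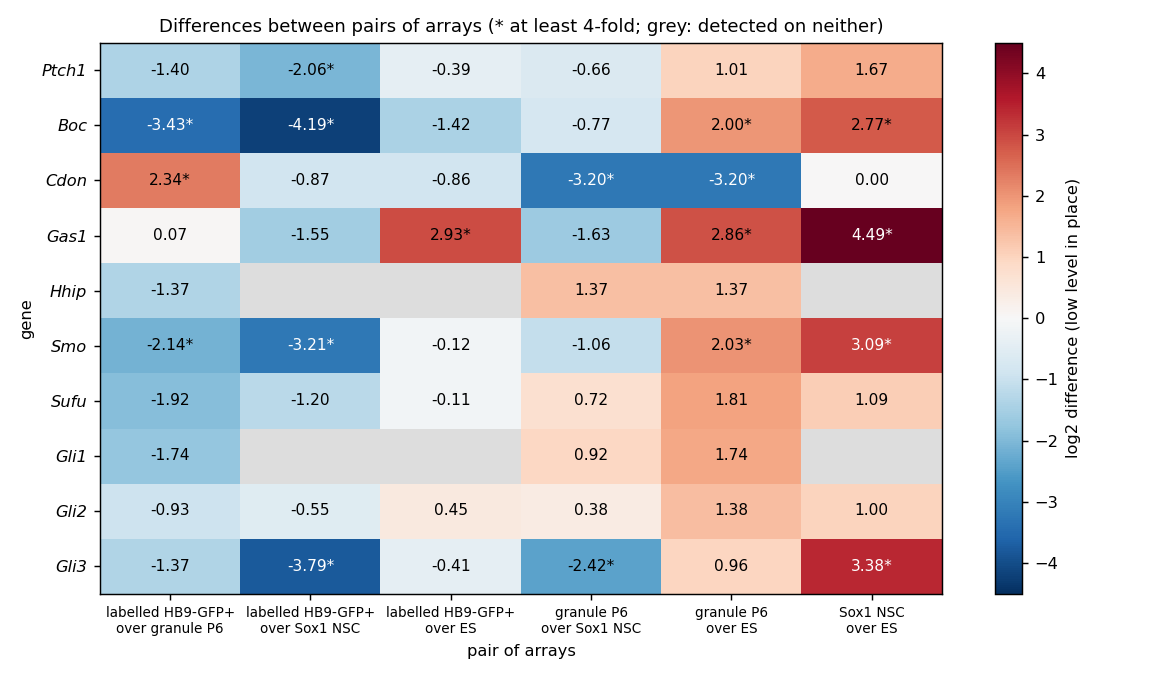
Log2 differences of the 10 genes (rows) in the 6 pairs of arrays (columns), first-named array over the second, with any value under the low level raised to it. Red cells are higher and blue cells lower on the first-named array, an asterisk marks at least 4-fold, and grey cells were detected on neither array. Gas1 is the single call of the sample labelled HB9-GFP+ over the ES sample, at 2.93.

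**Figure D4:**
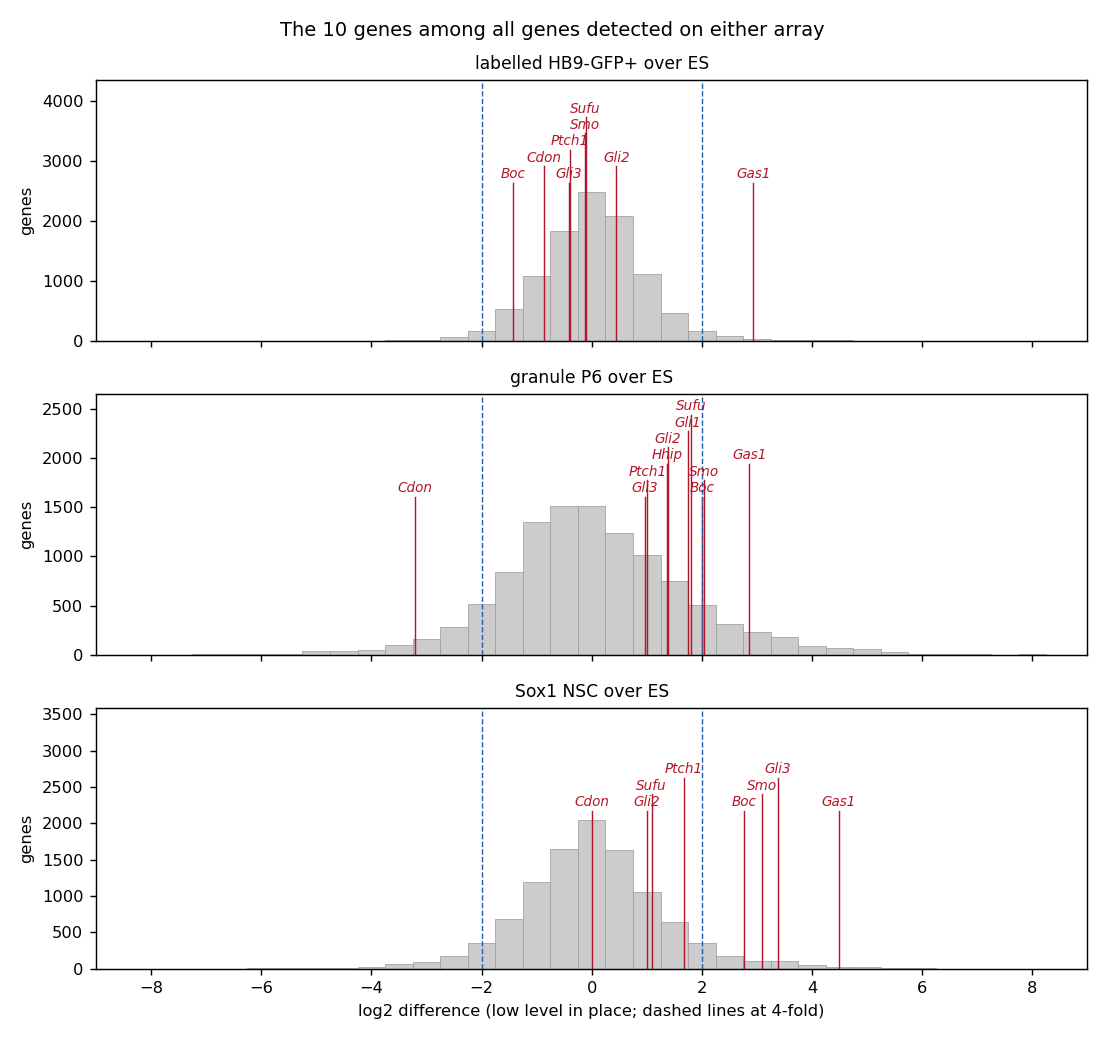
Histograms of the log2 difference of all genes detected on either array (bars, number of genes per 0.5 log2 units) for the 3 pairs against the ES sample, with the detected members as red lines and dashed lines at 4-fold. For the sample labelled HB9-GFP+ 1 member, Gas1 (2.93), lies past 4-fold and the others run from -1.42 (Boc) to 0.45 (Gli2), and members lie mostly above 0 for the granule and Sox1 samples.

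At a 2-fold line more members passed, as did more of all genes. The sample labelled HB9-GFP+ had 1 member higher and 7 lower than the granule sample, where 26.9% and 26.6% of all genes passed. It had 0 higher and 6 lower than the Sox1 sample (19.9% and 20.0% of all genes), and 1 higher and 1 lower than the ES sample (12.0% and 12.6%). The granule sample had 1 member higher and 4 lower than the Sox1 sample (17.8% and 15.3%), and 8 higher and 1 lower than the ES sample (25.5% and 25.1%). The Sox1 sample had 6 higher and 0 lower than the ES sample (19.0% and 19.3%).

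At least 4-fold from each of the other 3 arrays, the members were Gli3 in the Sox1 sample, Cdon in the granule sample and Gas1 in the ES sample, as given above. The share of all genes that stood apart upward was 0.648% for the sample labelled HB9-GFP+, 4.27% for the granule sample, 0.968% for the Sox1 sample and 0.389% for the ES sample. Downward it was 0.216%, 1.37%, 0.181% and 0.320% in that order.

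The scaling of the arrays bears on these counts. Centring on reference genes used the median level of Actb, Tbp, B2m, Ywhaz, Sdha, Pgk1 and Rpl13a on each array. That median fell on Ywhaz for the sample labelled HB9-GFP+ (16355.4) and ES (12572.6), but on Pgk1 for granule (8442.3) and Sox1 (15642). Gene by gene, their median difference was 0.43 for the sample labelled HB9-GFP+ over the granule sample. For the granule sample over the Sox1 sample it was -0.57. The part of this choice in the moves was not tested. Of all called genes, the higher share was 42.7% for the sample labelled HB9-GFP+ over the granule sample, 44.8% for it over the Sox1 sample, 57.7% for it over the ES sample, 63.6% for the granule sample over the Sox1 sample, 57.8% for it over the ES sample and 54.3% for the Sox1 sample over the ES sample. Centring on reference genes changed these to 14.7%, 42.2%, 27.2%, 90.1%, 76.5% and 38.8%, with medians of all genes at -0.94, -0.02, -0.37, 0.87, 0.54 and -0.37. Centring on array medians gave 64.5%, 63.8%, 89.1%, 54.0%, 55.4% and 59.9%. Quantile normalization moved only the share for the sample labelled HB9-GFP+ over the ES sample by over 10 points, to 67.8%. Under centring on reference genes the members' medians in the same order of pairs were -2.33, -1.87, -0.63, 0.18, 2.16 and 1.90.

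The other genes of the pathway were taken from 5 lists with 53 measured genes. Among ligands and genes of ligand release, Shh was at 38.7 in the sample labelled HB9-GFP+, 160.3 in the granule sample, 758.2 in the Sox1 sample and 68 in the ES sample. It was at least 9.63-fold higher in the Sox1 sample than in the ES sample on that probe set, and its other probe set was dark on all 4. The other ligand genes Ihh and Dhh were not detected on any array. Of the 9 genes, 3 were called higher in the Sox1 sample over the ES sample (Shh, Scube2 and Scube3), 2 in the granule sample over the ES sample (Disp2 and Scube2) and none in the sample labelled HB9-GFP+ over the ES sample. In the first and second of these pairs 4 of the 9 were detected, and in the third 1, and the shares of all detected genes called higher were 6.20%, 11.3% and 2.00%. The medians over all 9 were 0.19, 0.00 and 0.00 in that order. Disp2, a relative of the ligand exporter Disp1, was at 439.9 in the granule sample and at 47.7 in the ES sample, and Scube3, of a family of secreted proteins that help release the ligand, was at 487.9 in the Sox1 sample and at 111.7 in the ES sample.

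Of 4 other ligand binders, Gpc4 was the 1 gene called higher in the sample labelled HB9-GFP+ over the ES sample, at 3038.2 and 262.9. The granule sample had Gpc4 and Gpc6 higher and Lrp2 lower than the ES sample, and the Sox1 sample had Gpc4 and Gpc6 higher. Of the 4, 3 were detected in the first of these pairs and 4 in the others. The shares of all detected genes called higher were 2.00%, 11.3% and 6.20%, and 8.27% were lower in the granule sample. The medians over the 4 were 0.25, 0.90 and 2.25. Gpc6, a membrane heparan sulfate proteoglycan like Gpc4, was at 1511 in the Sox1 sample and 61.3 in the ES sample. Lrp2, an endocytic receptor that binds Sonic hedgehog, was at 26.1 in the granule sample and 574.6 in the ES sample.

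Of 13 measured genes of ciliary trafficking, 1 was called higher in the Sox1 sample over the ES sample and none lower, of 12 detected. In that pair 6.20% of all detected genes were called higher and 5.21% lower. The ciliary gene called higher was Gpr161, a receptor that restrains the pathway, at 832.6 and 88.1. The granule sample over the ES sample had Gpr161 and Ift172 higher and Evc2 lower (11.3% and 8.27% of all genes), and the sample labelled HB9-GFP+ over the ES sample had no call. The ciliary dynein gene Dync2h1 was at 82.6 in the sample labelled HB9-GFP+, 489.9 in the granule sample, 160.2 in the Sox1 sample and 237.3 in the ES sample. Evc2, a ciliary partner of Smo, was at 744.8 in the Sox1 sample, its highest. The medians over all 13 against the ES sample were 0.01 for the sample labelled HB9-GFP+, 0.44 for the granule sample and 0.60 for the Sox1 sample.

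Of 14 kinases and ubiquitin ligases that act on Gli proteins, 12 were detected in each pair with the ES sample. Dyrk2 alone was called there, higher in the granule sample (3758.8 and 703.6) and in the Sox1 sample (3255.6 and 703.6). Of all detected genes 11.3% and 6.20% were called higher in these 2 pairs. The medians over all 14 were -0.47 for the sample labelled HB9-GFP+, 0.28 for the granule sample and 0.22 for the Sox1 sample. Gsk3b, which phosphorylates Gli proteins for processing, was at 827 in the sample labelled HB9-GFP+, 4894.9 in the granule sample, 3489.9 in the Sox1 sample and 1380.8 in the ES sample. It was called lower in the sample labelled HB9-GFP+ than in the granule and Sox1 samples. Prkacb, a catalytic subunit of protein kinase A, ranged from 427.2 in the sample labelled HB9-GFP+ to 1464.6 in the granule sample.

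Target genes were the list with the most calls. Of 13, the Sox1 sample over the ES sample had 6 higher and 1 lower, where 9 were detected on either array and the median over all 13 was 1.83. The granule sample over the ES sample had 5 higher and 1 lower, where 8 were detected and the median over all 13 was 1.28, and the lower gene was Prdm1 in both pairs. The sample labelled HB9-GFP+ over the ES sample had 3 higher, Ccnd1, Ccnd2 and Olig2, and none lower, where 8 were detected and the median over all 13 was 0.00. Over all genes measured the median was 0.00 in each of these pairs. The shares of detected genes called higher were 6.20%, 11.3% and 2.00% in the order given, and those called lower 5.21%, 8.27% and 1.46%. Ccnd2, a D-type cyclin, was at 769.4 in the sample labelled HB9-GFP+, 14613.2 in the granule sample, 11250.1 in the Sox1 sample and 107.5 in the ES sample. Ccnd1, another D-type cyclin, was at 2892.9, 1901.8, 5750.4 and 572.7 in that order. Bmi1, a Polycomb gene, was at 589.7, 7853.3, 6739 and 989.8, and Nkx2-2, a ventral progenitor factor, was at 24.4, 1045.8, 455.9 and 23.3. These genes are controlled by several pathways and their values are no measure of Hedgehog signalling. The ventral factors Foxa2 and Olig2 were named after their values were seen. Foxa2 was at 670.3 in the Sox1 sample and below the low level on the other 3. Olig2 was at 320.6 in the sample labelled HB9-GFP+, 896 in the granule sample, 78.2 in the Sox1 sample and 0.9 in the ES sample.

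**Figure D5:**
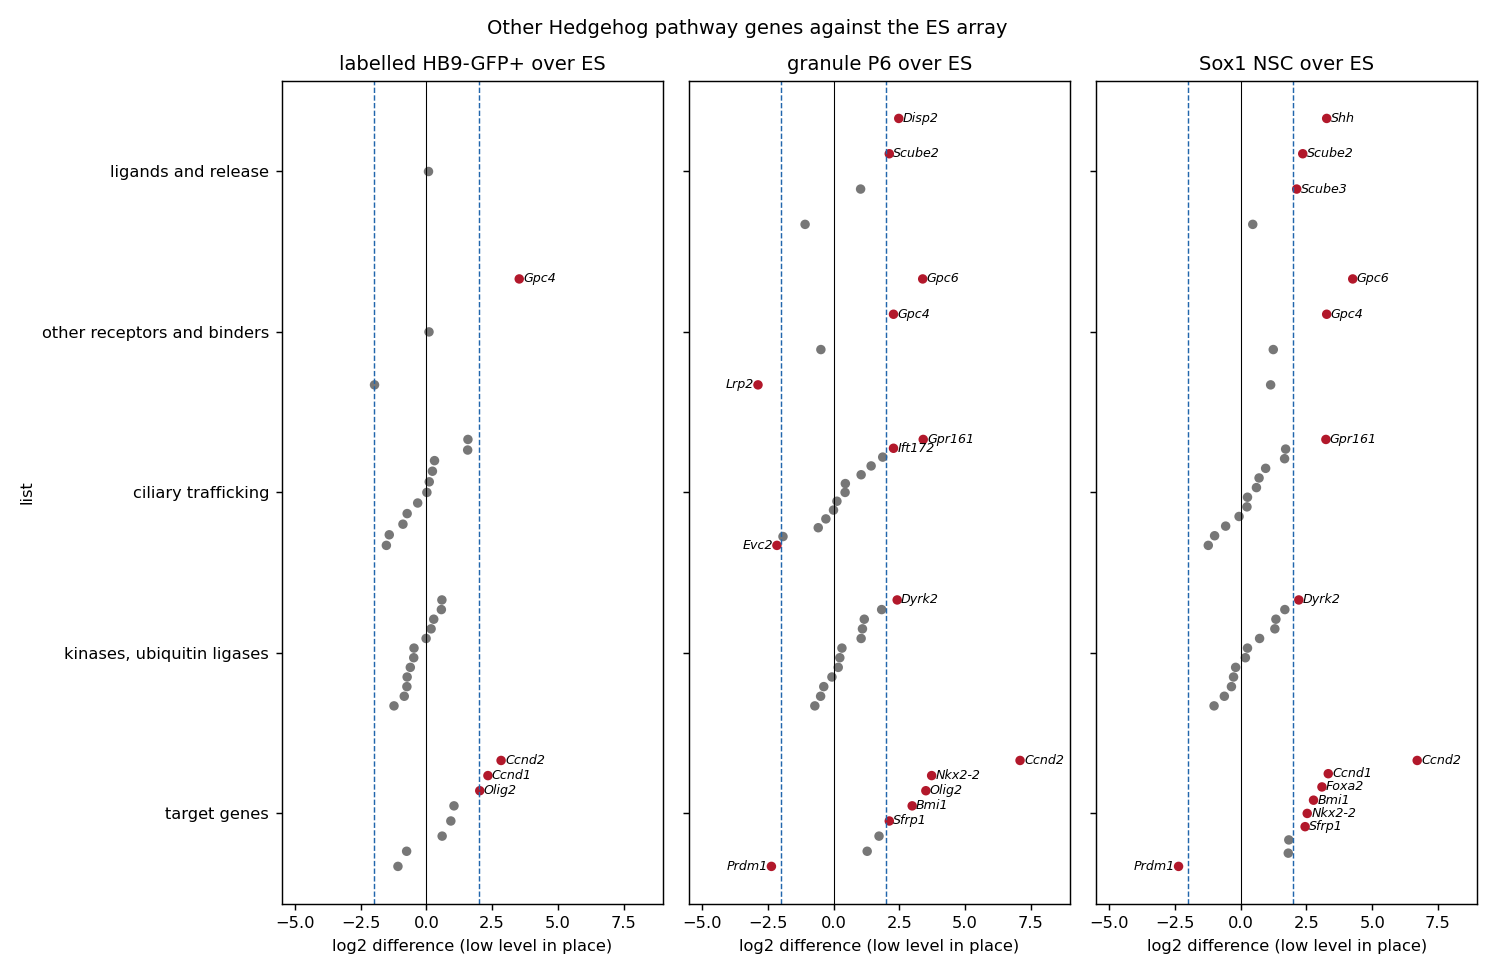
Log2 difference against the ES sample of the other pathway genes detected on at least 1 array of each pair, by list, for the sample labelled HB9-GFP+, the granule sample and the Sox1 sample, with 1 point per gene. Dashed lines mark 4-fold, and genes past it are red and named. Target genes reach 7.09 (Ccnd2 in the granule sample), while kinases and ubiquitin ligases have a single named gene, Dyrk2.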

How the data were processed

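Total RNA of 4 samples was hybridised to Affymetrix arrays, 1 per kind of cell. The deposited values are linear intensities for 45101 probe sets. GCRMA is named in the submitters' processing notes, but the deposited intensities have a common trimmed mean of 500.0 per array (2% trimmed at each end), the form of a scaled average difference, so the step that made them is uncertain and the arrays are forced to a common average. No genome build is given in the sources used here.

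Genes were named by the annotation of the array platform. Probe sets with 1 symbol numbered 34945 without controls. Of several probe sets for a gene, the one of highest mean log2 intensity stood for it, and no pseudocount was added. Averaging the median log2 value of each array gave the low level (6.30), detection was 1 unit above it, and a call was 2 units. All genes were called on the whole table. Where the dimmer array lay below the low level, the fold is a lower bound. Calling was tested on simulated arrays, with no outcome given here, which cannot supply the missing spread between samples. Precision is limited by having 1 array a group, and no test across samples was possible. Named were all members, up to 3 genes of each pathway list with the widest range, Shh and Ccnd1, 3 genes most like Ptch1 and Gli1, and marker genes. Other genes behind small counts were named after their values were seen. Members and lists were chosen with earlier results of these data known. The 7 alternatives were 3 scalings, 2 choices of probe set, a higher low level and a 2-fold call. Python 3.11.15, numpy 2.4.6 and pandas 2.3.3 were used. Arl13b, Adrbk1 and Itpr1, also listed, were not analysed here.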

Additional observations from a re-analysis of the deposited data

How the results depend on the processing

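No called member difference took the opposite sign under the 6 alternatives tried for single genes (3 scalings, 2 choices of probe set and a higher low level), but with the mean over probe sets 4 had none left, at 0.0: Boc for the sample labelled HB9-GFP+ over the granule sample and for the granule sample over the ES sample, and Cdon for the granule sample over the Sox1 and over the ES sample. In all, 305 of 360 log2 differences stayed within the probe set SD of the pair. Part of this was fixed by construction. Without _x_at or _s_at endings, Smo alone among the members changed its representative probe set. Differences between values above the raised low level could not move under that setting. Of 108 counts, 84 stayed within 1.5 times. For the sample labelled HB9-GFP+ over the granule sample, members called lower were 2, but 1 with quantile normalization, centring on array medians and probe sets without _x_at or _s_at endings, 6 with centring on reference genes, 0 with the mean over probe sets and 7 at 2-fold. Members higher there were 1, but 0 with centring on reference genes, the mean over probe sets and the higher low level. For the sample labelled HB9-GFP+ over the Sox1 sample, members lower were 4, but 6 at 2-fold. They were 3 with centring on array medians (Smo, Gli3 and Boc) and 3 with the mean over probe sets (Smo, Gli3 and Gas1). For the sample labelled HB9-GFP+ over the ES sample, members higher were 1 but 0 with the mean over probe sets, and lower 0 but 1 at 2-fold. For the granule sample over the Sox1 sample, members lower were 2, but 1 with centring on reference genes and the mean over probe sets and 4 at 2-fold, and higher 0 but 1 at 2-fold. For the granule sample over the ES sample, members higher were 3, but 1 with quantile normalization, centring on array medians and the mean over probe sets, 5 with centring on reference genes and 8 at 2-fold, and lower 1 but 0 with the mean over probe sets. For the Sox1 sample over the ES sample, members higher were 4 but 2 with the mean over probe sets. That mean also left 1 member detected in the sample labelled HB9-GFP+ and 1 in the ES sample. It includes the 10 dark probe sets by construction, and the cause of the other moves was not tested. No paired analysis was possible because each group holds 1 array and no result comes from a test. Signals near the low level, as for Gli1 and Hhip, limit what could be seen of those genes.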
